A study of Mus musculus with 24 samples.

Results

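The genes described here are 10 genes of collagen and extracellular matrix in mouse visceral adipose tissue, namely Col1a1, Col1a2, Col3a1, Col4a1, Col4a2, Col6a1, Col6a2, Fn1, Sparc and Tgfb1, out of 54232 genes in the count table. They were taken by name, each through its identifier in the mouse annotation, and all 10 passed the filter on low counts that left 26116 genes for testing. RNA-seq was performed on 24 mice, 10 weeks old by the description of the series, in 4 groups of 6 with 1 library per mouse. By the methods of the study the animals were male C57BL6 mice, a sham operation or a 5/6 partial nephrectomy (PNx), a surgical model of chronic kidney disease, was performed, and a lentivirus was injected into the abdomen. All 4 groups received a lentivirus in which the adiponectin promoter, active in adipocytes, drove the insert. Control (sham) and PNx animals received the green fluorescent protein GFP, and NaKtide (sham) and PNx+NaKtide (nephrectomy) animals received NaKtide, a peptide from the Na,K-ATPase that is meant to block signalling through the kinase Src, linked to GFP. NaKtide was thus directed to adipocytes, whereas the RNA came from whole tissue.

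Collagens are built from chains wound around each other into a helix, and the chains of a type are made from separate genes. Types I and III form the fibrils of connective tissue, type IV forms the sheet-like network of basement membranes around adipocytes and vessels, and type VI forms beaded filaments that are abundant around adipocytes. Fibronectin (Fn1) links cells to the matrix, Sparc is a collagen-binding secreted protein, and Tgfb1 encodes TGF-β1, a secreted factor known to raise collagen synthesis in fibroblasts. In adipose tissue most fibrillar collagen is made by fibroblasts and progenitor cells, and type IV collagen also by adipocytes and endothelium.

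The libraries were shallow, between 679250 and 2979505 counts, and a count of 0 allows up to 3 counts, or 0.739 to 5.91 CPM (TMM-scaled counts, that is, counts brought to a common library size), a limit that covers counting error only. The strand of the counts limits what each value holds. Genes whose exons overlap those of an opposite-strand gene made up 16.8% of the 54079 genes matched to the annotation and 27.5% of their exon bases, but held 79.9% of all counts. On the mitochondrial chromosome the 1 mRNA of the minus strand had 67.6 times the counts per kb of the 12 mRNAs of the plus strand together. The libraries were made with a stranded kit, and the strand setting of the counting is not given in the sources used here, so how far the count of a matrix gene represents its own transcript was not tested. Whether reads were counted on the strand opposite to their gene was not tested either, and would bear on the values of all 10 genes, those with no overlap included. Of the 10 genes, 7 share no exon base with an opposite gene. Col4a1 and Col4a2 share 22 bases with each other, Col4a2 shares 43 bases with the antisense gene Gm15419, and Fn1 shares 292 bases with the antisense gene Apol7d. Gm15419 had 1735 counts per kb against 209 for Col4a2 over all libraries, and Apol7d had 95.7 against 23.3 for Fn1. In total counts, Gm15419 had 1289 against 1380 for Col4a2, and Apol7d had 200 against 272 for Fn1. The values of Col4a2 and Fn1 thus carry the added uncertainty of a neighbour with more counts per kb.

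All 10 genes had few counts. The 24 libraries together held 2304 counts of Sparc, 1682 of Col4a1, 1380 of Col4a2, 839 of Col3a1, 728 of Col6a2, 648 of Tgfb1, 632 of Col6a1, 459 of Col1a1, 424 of Col1a2 and 272 of Fn1. Per length, on the deposited FPKM scale, the median level over the 24 libraries was 6.39 for Sparc, 3.02 for Tgfb1 and 2.01 for Col4a2. Then came Col6a1 with 1.59, Col4a1 with 1.51, Col1a1 with 1.02, Col6a2 with 0.893, Col3a1 with 0.598, Col1a2 with 0.39 and Fn1 with 0.277. The ranges over libraries overlapped between neighbours throughout this order, since Sparc spanned 2.53 to 86.7 FPKM and Fn1 0 to 3.42 FPKM.

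Promoter sequence is shown for the members whose patterns across libraries set the results apart. These are the pair Col4a1 and Col4a2, which had the highest correlation among the 6 pairs of members compared, the fibrillar genes Col1a2 and Col3a1, and Tgfb1, which differed from the other members. Windows of 250 bases before and 50 after the gene start (RefSeq, GRCm38.p6) were found for 8 of the 10 members, with 2 windows for Col6a2. Col4a1 and Col4a2 lie head to head on chromosome 8, Col4a1 on the minus strand from 11198423 to 11312826 and Col4a2 on the plus strand from 11312805 to 11449287. Their windows share 78 bases at chr8:11312777-11312854, printed from the plus strand, with the 22 bases from 1 gene start to the other in capitals.
Col4a1/Col4a2 shared window: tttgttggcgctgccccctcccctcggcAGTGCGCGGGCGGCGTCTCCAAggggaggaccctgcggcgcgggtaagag
The other windows are those of Col1a2 at chr6:4505368-4505667, Col3a1 at chr1:45311288-45311587 and Tgfb1 at chr7:25686752-25687051, all on the plus strand. Capitals mark matches, on either strand, to the TATA box letters TATAAA, to the box written as CCAAT, to the core of a GC box, GGGCGG, and to CAGACA, a sequence bound by Smad proteins.
Col1a2: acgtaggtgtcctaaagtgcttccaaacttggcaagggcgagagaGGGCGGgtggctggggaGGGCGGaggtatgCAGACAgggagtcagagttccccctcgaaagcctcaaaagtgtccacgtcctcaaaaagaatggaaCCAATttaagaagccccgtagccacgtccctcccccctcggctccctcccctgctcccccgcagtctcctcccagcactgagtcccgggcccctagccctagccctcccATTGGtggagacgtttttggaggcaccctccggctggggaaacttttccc
Col3a1: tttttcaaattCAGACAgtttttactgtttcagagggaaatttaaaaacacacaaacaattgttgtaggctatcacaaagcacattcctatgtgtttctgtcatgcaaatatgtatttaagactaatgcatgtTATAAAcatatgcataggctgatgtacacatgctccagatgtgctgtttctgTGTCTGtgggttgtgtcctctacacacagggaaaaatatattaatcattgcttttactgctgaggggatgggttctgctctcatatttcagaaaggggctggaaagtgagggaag
Tgfb1: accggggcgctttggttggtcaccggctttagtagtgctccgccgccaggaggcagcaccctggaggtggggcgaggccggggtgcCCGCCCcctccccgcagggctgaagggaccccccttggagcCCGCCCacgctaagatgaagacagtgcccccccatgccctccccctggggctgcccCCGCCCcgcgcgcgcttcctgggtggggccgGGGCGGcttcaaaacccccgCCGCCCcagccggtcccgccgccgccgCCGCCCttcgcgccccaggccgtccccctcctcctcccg
The Col3a1 window held TATAAA at position -117 (the first base of the gene being position 0), a motif found in 13.6% of 32851 RefSeq windows of this length, and was 37.7% G or C. The Tgfb1 window was 77% G or C and held 6 GGGCGG matches but none of the other motifs. GGGCGG was found in the windows of 5 members (35.7% of all windows hold it), CCAAT in those of Col1a2, Col4a1 and Col4a2 (37.4%) and CAGACA in those of Col1a2, Col3a1 and Sparc (21%). These matches are descriptions of the letters in the windows.

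The libraries that stood apart dominated the matrix genes. In 9 of the 10 genes, all but Tgfb1, the highest pair of libraries was PNx replicate 6 and NaKtide replicate 6, a pattern found in 8.68% of all genes tested. The pair held 59.9% of the 8720 counts of these 9 genes, PNx replicate 6 alone 41.4%, although they held 8.38% of all counts. The 9 genes summed to 1362 CPM in PNx replicate 6 and to 1042 CPM in NaKtide replicate 6, and to between 22.6 and 216 CPM in the other 22 libraries. In bulk tissue, fewer cells of a type and less RNA per cell cannot be told apart. On the strand measures above, PNx replicate 6 had the lowest share of counts in overlapping genes (70.2%) and the lowest mitochondrial strand ratio (21), whereas NaKtide replicate 6 had the highest share (86.5%) and a ratio of 56.7. In the other 22 libraries the share was 75.9% to 83.9% and the ratio 37.6 to 194, and the part of the strand balance in the result was not tested.

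**Figure D1:**
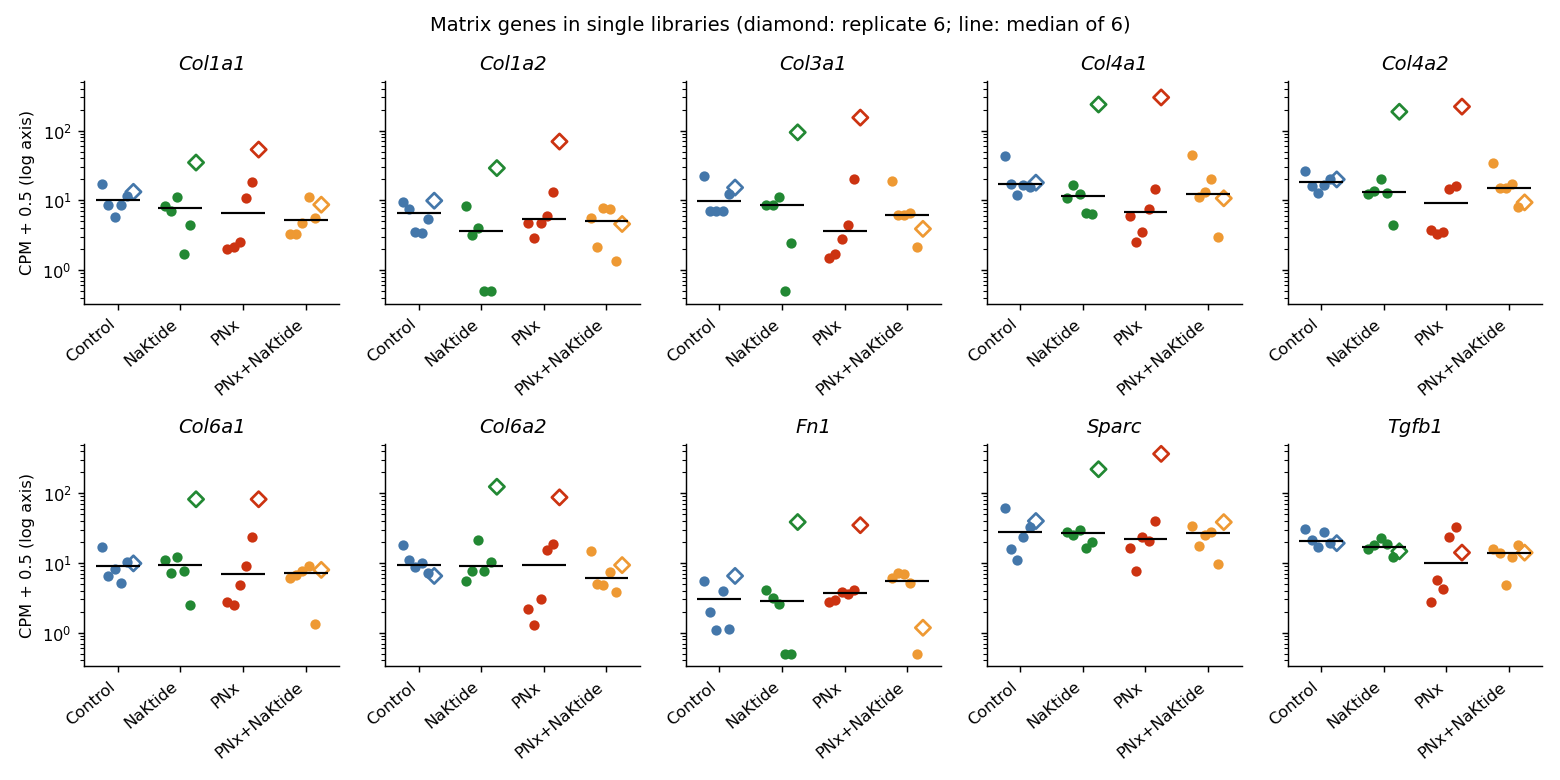
Level of each gene in each library, as CPM + 0.5 on a log axis, by group, with points for single libraries, an open diamond for replicate 6 of each group and a line at the median of 6. In all panels but Tgfb1 the diamonds of PNx and NaKtide lie above every other library, whereas for Tgfb1 PNx replicates 1, 2 and 3 are among the 4 lowest libraries.

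The basement membrane collagens Col4a1 and Col4a2 were measured with the most counts among the collagens. Their identifiers are ENSMUSG00000031502 and ENSMUSG00000031503. In Control, Col4a1 ranged from 11.2 to 42.7 CPM with a median of 16.4, and in PNx its 6 libraries had, in the order of replicates 1 to 6 used for PNx throughout, 5.42, 2.02, 3.03, 7.07, 14.3 and 298 CPM. In NaKtide it ranged from 5.91 to 236 CPM with a median of 11.1, and in PNx+NaKtide from 2.5 to 44.8 CPM with a median of 11.7. PNx therefore held both the highest level of all libraries and 4 libraries below the lowest Control library. Col4a2 ranged from 12.4 to 26 CPM in Control with a median of 17.9, and had 3.2, 2.83, 3.03, 14.1, 15.4 and 220 CPM in PNx. Its NaKtide libraries spanned 3.94 to 186 CPM and its PNx+NaKtide libraries 7.49 to 33.8 CPM, with medians of 12.7 and 14.4. As for Col4a1, PNx replicates 1, 2 and 3 lay below all Control libraries and replicate 6 far above them.

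The fibrillar collagen genes had the same high libraries at lower levels. On GRCm38 they lie apart from each other, Col1a1 (ENSMUSG00000001506) on chromosome 11 from 94936224 to 94953042 (plus strand), Col1a2 (ENSMUSG00000029661) on chromosome 6 from 4504814 to 4541544 (plus strand) and Col3a1 (ENSMUSG00000026043) on chromosome 1 from 45311538 to 45349706 (plus strand). Col1a1, which encodes the major chain of type I collagen, ranged from 5.33 to 16.7 CPM in Control (median 9.64) and had 1.48, 1.62, 2.02, 10.2, 17.8 and 52.8 CPM in PNx. In NaKtide and PNx+NaKtide it spanned 1.21 to 34.3 and 2.77 to 10.8 CPM. Col1a2, which encodes the partner chain, ranged from 2.92 to 9.37 CPM in Control (median 5.97), from 0 to 28.5 CPM in NaKtide and from 0.832 to 7.14 CPM in PNx+NaKtide. Its PNx libraries had 4.19, 2.42, 4.29, 5.5, 12.5 and 69.1 CPM, and unlike Col1a1 only 1 of them lay below the lowest Control library, against 3 for Col1a1. Col3a1, the type III chain, ranged from 6.42 to 21.8 CPM in Control (median 9.12) and had 0.986, 1.21, 2.27, 3.93, 19.6 and 153 CPM in PNx. Its NaKtide libraries spanned 0 to 93.8 CPM and its PNx+NaKtide libraries 1.66 to 18.3 CPM. For all 3 genes the groups overlapped.

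The type VI collagen genes Col6a1 and Col6a2 encode chains of the same filament and lie near each other, Col6a1 (ENSMUSG00000001119) on chromosome 10 from 76708792 to 76726168 (minus strand) and Col6a2 (ENSMUSG00000020241) on chromosome 10 from 76595762 to 76623630 (minus strand). Col6a1 ranged from 4.67 to 16.3 CPM in Control (median 8.53), from 1.97 to 81.5 CPM in NaKtide and from 0.832 to 8.44 CPM in PNx+NaKtide, and had 2.22, 2.02, 4.29, 8.64, 23.2 and 81.5 CPM in PNx. Col6a2 ranged from 6.02 to 17.6 CPM in Control (median 8.81), from 4.96 to 124 CPM in NaKtide and from 3.33 to 14.4 CPM in PNx+NaKtide, with 1.73, 0.808, 2.52, 14.9, 18.4 and 86.8 CPM in PNx. Both genes were thus below all Control libraries in PNx replicates 1, 2 and 3 and above them all in PNx replicates 5 and 6. Col6a2 was highest in NaKtide replicate 6.

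Fn1 and Sparc, which encode the non-collagen matrix proteins, had the same high libraries. The genes are Fn1 (ENSMUSG00000026193) on chromosome 1 from 71585520 to 71653200 (minus strand) and Sparc (ENSMUSG00000018593) on chromosome 11 from 55394500 to 55423183 (minus strand). Fn1 was near the counting limit, with 0.592 to 6.02 CPM in Control (median 2.5) and 0 to 6.69 CPM in PNx+NaKtide. It stood between 2.22 and 3.56 CPM in 5 PNx libraries and at 34.3 CPM in PNx replicate 6, and reached 38.2 CPM in NaKtide replicate 6. Sparc, the member with most counts, ranged from 10.7 to 61.3 CPM in Control (median 27.7) and had 16, 7.27, 23.2, 20.4, 39.2 and 367 CPM in PNx. It spanned 15.7 to 221 CPM in NaKtide and 9.15 to 38 CPM in PNx+NaKtide. Of the PNx libraries, none was below the lowest Control library for Fn1 and 1 was for Sparc. The lowest Control library held 1 count of Fn1, below the counting limit, so a lower PNx library could hardly have been seen for this gene.

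Tgfb1, the ligand among the members, did not share the high libraries. It is annotated as Tgfb1 (ENSMUSG00000002603) on chromosome 7 from 25687002 to 25705077 (plus strand). It ranged from 16.6 to 30.6 CPM in Control with a mean of 22.3 ± 5.53 (SD, n = 6), and the libraries highest for the other members had 13.6 CPM (PNx replicate 6) and 14.2 CPM (NaKtide replicate 6), ranks 16 and 15 of 24. PNx split into 2.22, 5.25 and 3.79 CPM in replicates 1, 2 and 3, 22.8 and 32.1 CPM in replicates 4 and 5, and the 13.6 CPM of replicate 6. In NaKtide it ranged from 11.8 to 22.3 CPM (mean 16.6 ± 3.67 SD, n = 6) and in PNx+NaKtide from 4.29 to 17.5 CPM (12.6 ± 4.56 SD, n = 6). PNx replicates 1, 2 and 3 were also the libraries with the most germ cell marker counts (1354, 1266 and 1569 CPM summed over 16 testis genes, against 138 to 1105 CPM in the libraries other than these). Their sums of macrophage markers (173, 284 and 189 CPM) were below those of all Control libraries (329 to 454 CPM). Outside PNx replicate 6 and NaKtide replicate 6, the median was 409 CPM for this sum and 380 CPM for Csf1r alone. The part of these cell types in the Tgfb1 result was not tested.

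The comparison of PNx with Control addresses the effect of nephrectomy in animals that carried GFP. None of the 10 genes passed an adjusted p under 0.1 in edgeR's quasi-likelihood test, where 0.0766% of all genes tested (20 of 26116) did, and none had an unadjusted p under 0.05 (25.4% of all genes did). The count of all genes called ran from 0 to 8645 when 1 library was left out. It was 8645, 6031 and 3815 in the fits that lacked replicates 4, 5 and 6 of PNx, respectively. DESeq2 gave no p-value to Col4a1, Col4a2 and Sparc in any comparison, since its rule on outlying counts set them aside, and called none of the other 7 members, where 29.7% of all genes were called. With that rule off, an alternative added after seeing the data, none of the 10 members was called, where 29.9% of all genes were. In limma voom with sample weights 7 were called lower, as were 31.0% of all genes. The log2 fold change was positive for 9 genes, from 0.46 ± 0.71 (SE) for Col1a1 to 1.49 ± 0.95 for Fn1, with a median over the 10 genes of 1.31 against 0.36 over all genes tested. Col4a1 was at 1.47 ± 1.07, Col1a2 at 1.43 ± 0.81, Col3a1 at 1.41 ± 1.05, Sparc at 1.37 ± 0.79 and Col4a2 at 1.24 ± 0.93 (SE). Col6a1 was at 1.17 ± 0.79 and Col6a2 at 1.08 ± 0.85 (SE), and the 95% interval of each of the 10 genes included 0. Tgfb1 had a log2 fold change of -0.77 ± 0.48 (SE), and the smallest edgeR adjusted p of a member was 0.247 (Col1a2). Scaling by DESeq2 size factors moved the median of all genes from 0.36 to 0.76 and that of the members to 1.41.

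The positive sign rested on 1 library. Without PNx replicate 6 alone the median over the 10 genes was -0.62, and 0 members were called in edgeR, where 14.8% of all genes were. Without PNx replicate 6 and NaKtide replicate 6 together all 10 log2 fold changes were negative, with a median of -0.62 against 0.02 over all genes. Col4a1 and Col4a2 then passed the test and were lower, at -1.68 ± 0.56 (SE, edgeR adjusted p = 0.069) and -1.3 ± 0.49 (SE, edgeR adjusted p = 0.0856), in a fit where 21.8% of all genes were called and 6.38% were called lower. The PNx libraries lowest for both genes were replicates 1, 2 and 3. Their endothelial marker sums were 35.1 to 45.2 CPM (57.2 to 93.2 CPM in Control) and their smooth muscle sums 68.5 to 92.9 CPM (236 to 263 CPM). Their germ cell sums were 1266 to 1569 CPM (199 to 754 CPM). Outside the replicate 6 libraries of PNx and NaKtide, the median was 63.15 CPM for the endothelial sum and 42.1 CPM for Egfl7 alone. The part of these cell types in the calls of Col4a1 and Col4a2 was not tested. The other members lay between -1.08 ± 0.71 (Col3a1) and -0.0012 ± 0.55 (Fn1), and Tgfb1 was at -0.8 ± 0.5 (SE). Without PNx replicates 1, 2 and 3, in contrast, 9 genes were positive with a median of 2.07, and Tgfb1 was at -0.01 ± 0.4 (SE). Among the 9, 7 had an unadjusted p under 0.05 (higher in 6.26% of all genes), with the smallest edgeR adjusted p at 0.395 (Col1a2, 2.16 ± 0.8). Without PNx replicate 5, Tgfb1 was called at a log2 fold change of -1.27 (edgeR adjusted p = 0.0812), where 6.99% of all genes were called lower.

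**Figure D2:**
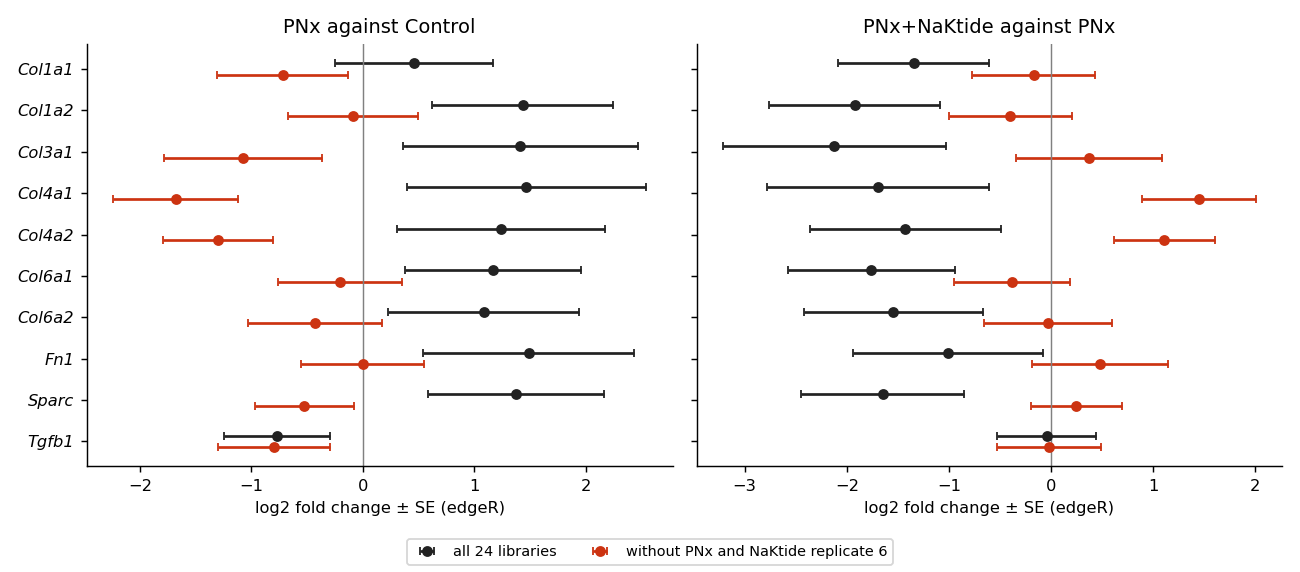
Log2 fold change ± SE of each gene in PNx against Control (left) and PNx+NaKtide against PNx (right), in black from all 24 libraries and in red without PNx replicate 6 and NaKtide replicate 6. On the left the 9 genes other than Tgfb1 move from above 0 to 0 or below, and on the right Col4a1 and Col4a2 move from -1.7 and -1.43 to 1.45 and 1.11.

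The comparison of PNx+NaKtide with PNx addresses the effect of NaKtide after nephrectomy. It contains the same PNx libraries as the comparison above, so the values of the pair are not independent. No member was called in edgeR, as no gene was (0% of 26116), nor were the 7 with a p-value in DESeq2, where 5.80% of all genes were called, nor any of the 10 with its outlier rule off (5.89% of all genes were), and voom called 4 members higher, as it did 24% of all genes. All 10 log2 fold changes were negative, with a median of -1.6 against -0.37 over all genes, and 3 had an unadjusted p under 0.05 (lower in 8.60% of all genes). These were Col1a2 with -1.92 ± 0.84, Col6a1 with -1.76 ± 0.82 and Sparc with -1.65 ± 0.8 (SE), and their edgeR adjusted p lay between 0.373 and 0.393. Col3a1 was at -2.12 ± 1.09, Col4a1 at -1.7 ± 1.09 and Tgfb1 at -0.04 ± 0.48 (SE). Without both replicate 6 libraries 5 genes were positive and 5 negative, with a median of 0.11 against -0.11 over all genes. Col4a1 and Col4a2 were then at 1.45 ± 0.56 and 1.11 ± 0.49 (SE), with edgeR adjusted p of 0.202 and 0.23. Without PNx replicates 1, 2 and 3 the median was -2.39, and 9 members had an unadjusted p under 0.05 and were lower, as were 7.19% of all genes, but none was called in edgeR (no gene was).

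The comparison of NaKtide with Control gives the effect of the peptide in sham animals. No member or other gene passed the adjusted p (0% of 26116, with 3.95% at an unadjusted p under 0.05, 2.04% higher and 1.91% lower), none of the members had an unadjusted p under 0.05, and DESeq2 called none of the 7 members it gave a p-value and 0.0115% of all genes (none of 10 and 0.203% with its outlier rule off). Without NaKtide replicate 6 and PNx replicate 6 the median of the members went from 1.03 to -0.53, and Col6a2, the member furthest above 0 (1.57 ± 0.87, SE), went to 0.03 ± 0.61. In PNx+NaKtide against NaKtide no gene was called (0%), the median of the members was -1.27 and 0.13 without both libraries, and Col6a1 and Col6a2 had an unadjusted p under 0.05 at -1.76 ± 0.82 and -2.04 ± 0.89 (SE, edgeR adjusted p = 1), where 4.09% of all genes had one, 2.58% lower. The interaction of nephrectomy and NaKtide, which tests whether the effect of nephrectomy differed with the peptide, was called for no gene in edgeR (0%), and voom called 3 members higher, as it did 16.1% of all genes. Its median over the members was -2.58 and, without both libraries, 0.58. Without PNx replicates 1, 2 and 3 it was -3.42, with 9 members lower at an unadjusted p under 0.05 (7.35% of all genes) and none called in edgeR. Over all 24 libraries Col6a1, Col6a2 and Sparc had an unadjusted p under 0.05, as 9.27% of all genes had (5.79% lower and 3.48% higher), and the smallest edgeR adjusted p was 0.492. Col4a1, which was at -2.97 ± 1.53 (SE), was at 2.39 ± 0.79 without both libraries (edgeR adjusted p = 0.398).

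The makeup of PNx replicate 6 and NaKtide replicate 6 also differed from that of the other libraries. The tissue is labelled adipose, and its defining markers were found, but the 15 adipocyte markers summed to 6874 CPM in PNx replicate 6 and to 4030 CPM in NaKtide replicate 6, against 123 to 1084 CPM in the other 22 libraries. Adipoq, the adiponectin gene, had 345 and 166 CPM in the pair and a median of 28.8 CPM elsewhere. The sum of 12 fibroblast and progenitor markers was 1332 and 787 CPM, against 58.2 to 235 CPM, and Gsn alone held 1149 and 720 CPM of it. Pdgfrb, Thy1 and Clec3b also exceeded the other 22 libraries in both, Ly6a, Anxa3 and Icam1 in PNx replicate 6 only. Pdgfra, Pi16, Dpp4 and Cd34 did so in neither. The sum of 10 endothelial markers was 714 and 521 CPM, against 35.1 to 140 CPM, and Egfl7 held 186 and 431 CPM of it. Tek, Emcn, Esam and Vwf exceeded the other 22 libraries in PNx replicate 6 only, the other endothelial markers in both. The 15 epididymis markers, genes of an organ that lies beside the gonadal fat of males, were low in both at 102 and 21.3 CPM. Their median in the others was 1418 CPM (30.8 to 2361). PNx replicates 1 and 2, the lowest of the others, had epididymis sums of 30.8 and 221 CPM. Their matrix genes other than Tgfb1 summed to 37.45 and 22.61 CPM. Control replicate 1, PNx replicate 5 and PNx+NaKtide replicate 1 had 1978, 2246 and 2346 CPM, with matrix sums of 216, 164 and 163 CPM. PNx+NaKtide replicate 5 went the other way, with 1684 and 30.77 CPM. The relation across the others was not tested. The sum of 10 macrophage markers (364 and 353 CPM, against 173 to 592 CPM) did not set the pair apart, but its genes differed. Csf1r had 190 and 226 CPM in the pair, against a median of 380 CPM elsewhere. Lyz2, C1qa, C1qc, Cd163 and Mrc1 were above all other libraries in both. C1qb and Adgre1 were so in PNx replicate 6 only, and Cd68 and Fcgr1 in neither. The sum of 5 erythrocyte genes was 1627 CPM in PNx replicate 6 and otherwise highest in NaKtide replicate 6 at 244 CPM (at most 119 CPM elsewhere). The 12 skeletal muscle genes reached 6430 CPM in NaKtide replicate 6 alone, against 34.7 CPM in PNx replicate 6. The sum of 7 smooth muscle markers (433 and 382 CPM, against 68.5 to 700 CPM) was not highest in the pair. Nor was that of 8 mesothelium markers (63 and 16.2 CPM, against 20.9 to 320 CPM). Within the mesothelium list, Msln (3.02 and 3.23 CPM) and Upk3b (6.42 and 3.88 CPM) were highest in the pair (at most 1.39 and 2.32 CPM elsewhere). Its other genes were not, among them Krt8, Krt18 and Krt19, with medians of 38.1, 62.4 and 28.3 CPM elsewhere. All members of these lists were counted in at least 1 library, and the part of these tissues in the matrix gene levels was not tested.

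**Figure D3:**
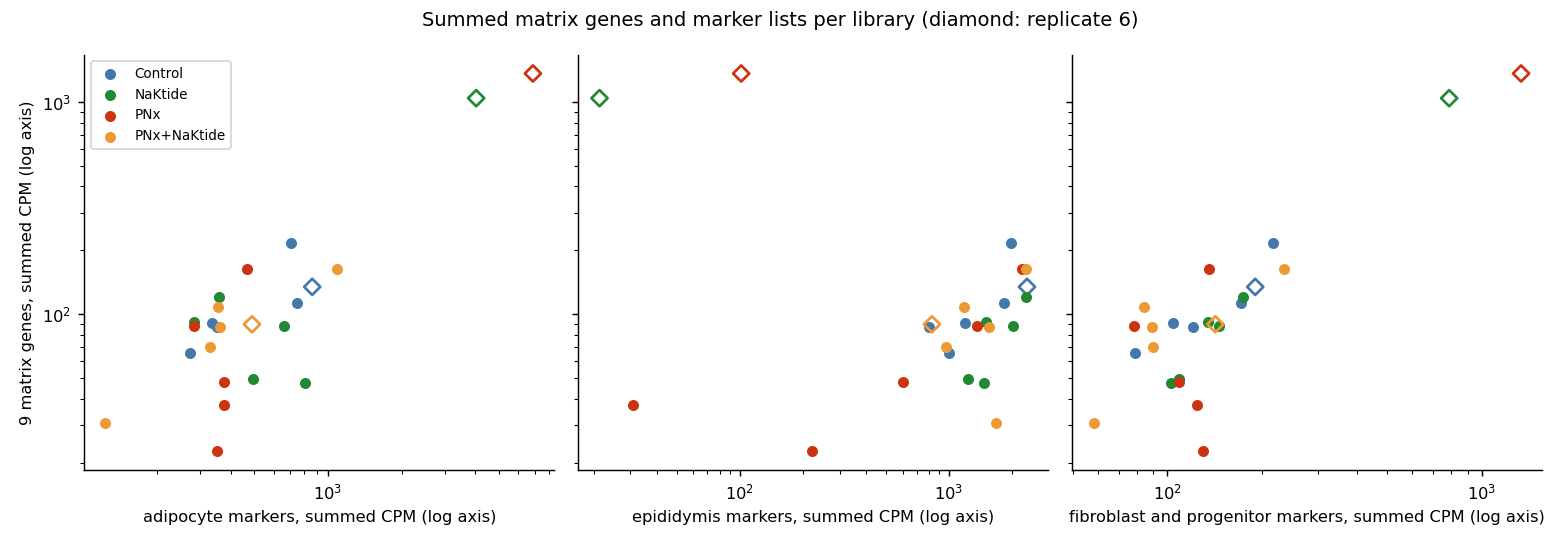
Summed CPM of the 9 matrix genes other than Tgfb1 (vertical, log axis) against the summed CPM of adipocyte, epididymis and fibroblast markers (horizontal, log axes) in each of 24 libraries, coloured by group, with open diamonds for replicate 6. PNx replicate 6 (1362 CPM) and NaKtide replicate 6 (1042 CPM) lie at the upper right for adipocyte and fibroblast markers and at the upper left for epididymis markers. Gsn alone held 1149 and 720 CPM of the fibroblast sums of this pair.

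The balance of collagen chains within a library does not depend on its scaling. In FPKM, Col1a1 was at a median of 2.71 times Col1a2 over the 21 libraries with at least 3 counts of both genes, 3.5 times in Control. In PNx the ratio was 0.668, 1.26, 0.891, 3.52, 2.71 and 1.45. The mean log2 ratio of counts (each plus 0.5) was 0.8 ± 0.44 (SD, n = 6) in Control and -0.34 ± 0.88 (SD, n = 6) in PNx, with 4 of 6 PNx libraries below the lowest Control library. The difference of -1.14 had p = 0.026 in an exact two-sided permutation test over 924 assignments and an adjusted p of 0.104 over the 4 ratios tested, which were chosen after their values were seen. It thus failed the correction, and without PNx replicates 1, 2 and 3 it was -0.48 (exact permutation p = 0.238). The other ratios differed less, with exact permutation p (n = 6 per group) of 0.781 for Col3a1 to Col1a1, 0.805 for Col4a1 to Col4a2 and 0.297 for Col6a1 to Col6a2. Of the 4 pairs, Col4a1 and Col4a2 stayed closest to each other, with a median FPKM ratio of 0.819 and a range of 0.296 to 1.5 over 23 libraries, and 1.2 and 1.13 in PNx replicate 6 and NaKtide replicate 6.

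**Figure D4:**
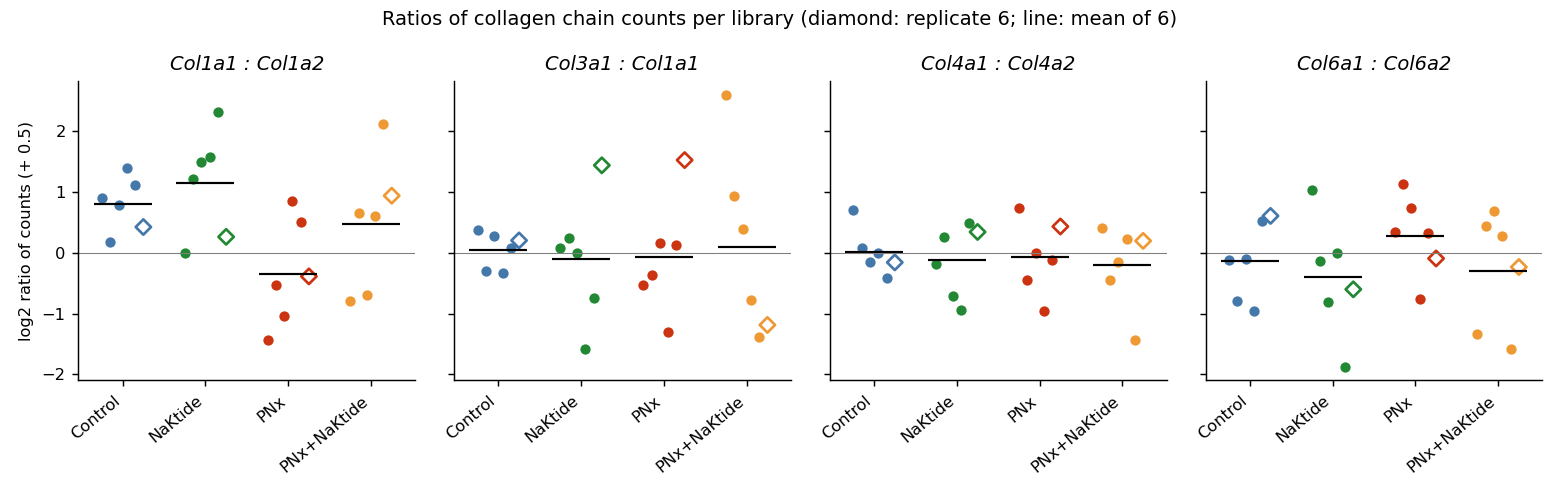
Log2 ratio of counts (each plus 0.5) for 4 pairs of collagen genes in each library, by group, with an open diamond for replicate 6 and a line at the mean of 6. For Col1a1 to Col1a2 the mean is 0.8 in Control and -0.34 in PNx, with 4 PNx libraries below all Control libraries.

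Across the 22 libraries other than PNx replicate 6 and NaKtide replicate 6, 6 pairs of members were correlated on the log2 CPM scale, with p from 100000 permutations and adjusted over the 6 pairs. Col4a1 and Col4a2 had r = 0.864 (permutation p = 1e-05, the smallest these permutations can give, adjusted p = 6e-05) and rho = 0.896 (adjusted permutation p = 6e-05). The r was 0.855 without the 2 libraries farthest from the median and 0.792 with group means removed. Col1a1 and Col3a1 had r = 0.756 and rho = 0.721 (adjusted permutation p of 0.00018 and 0.00084), and r = 0.634 without the 2 farthest libraries. For Col6a1 and Col6a2 the values were r = 0.649 and rho = 0.493 (adjusted permutation p of 0.00282 and 0.031), and r = 0.775 without the 2 farthest. Col1a1 and Col1a2, the chains of type I collagen, had r = 0.586 and rho = 0.615 (adjusted permutation p of 0.00532 and 0.00564), and r = 0.53 without the 2 farthest. Over 24 libraries they had 459 and 424 counts, against 1682 and 1380 for Col4a1 and Col4a2. The part of counting error in the order of these correlations was not tested. Of the 2 pairs of the ligand Tgfb1, that with Col4a1 passed the test and that with Sparc did not. Tgfb1 and Col4a1 had r = 0.511 and rho = 0.468 (adjusted permutation p of 0.019 and 0.0359), with r = 0.389 without PNx replicates 1 and 3 and 0.358 with group means removed. Tgfb1 and Sparc had r = 0.36 and rho = 0.328 (adjusted permutation p of 0.1 and 0.137), and r = 0.403 without the 2 farthest. The libraries of a pair share their depth, scaling and tissue makeup.

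Of 11381 other named genes with a mean of at least 5 CPM, those most like the members (Pearson's r with the mean standardised log2 CPM of the 10 genes, over 24 libraries) were Ahnak (0.942), Cd74 (0.924), Tnfrsf1a (0.923), Scp2 (0.918) and Dcn (0.917). Over the 22 libraries r was 0.9, 0.866, 0.847, 0.892 and 0.82 in the same order. Dcn encodes decorin, a proteoglycan that binds collagen fibrils.

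The wider matrix pathway was read from 8 lists with 148 genes, of which 146 were tested. In PNx against Control none was called in edgeR, 31 had an unadjusted p under 0.05 and were higher (18.5% of all genes did) and 7 were lower (6.88%), and the median log2 fold change was 0.56. In 53 of the 146 genes PNx replicate 6 and NaKtide replicate 6 were the highest pair. Without both, 13 of 143 genes were called higher and 17 lower, where 15.4% and 6.38% of all genes were, and the median was -0.38. In either direction 21% of the list genes were thus called, near the 21.8% of all genes. The medians of the lists were 1.49 for 11 other fibrillar and associated collagens, 1.62 for 17 genes of beaded filaments and microfibrils and 0.47 for 21 basement membrane genes. Those for 23 genes of collagen modification, 16 proteoglycans and matricellular proteins, 16 proteases and inhibitors and 23 matrix receptors were 0.6, 0.81, 0.42 and 0.92. The 19 genes of TGF-β ligands, receptors and mediators were the list with a negative median over all 24 libraries, -0.43. Without both libraries it was -0.76, but the proteoglycan and protease lists were then at -0.76 and -0.72. The basement membrane, receptor and beaded filament lists were at -0.37, -0.31 and -0.14, and the fibrillar collagen and collagen modification lists at 0.12 and 0.13. In PNx+NaKtide against PNx, 0 of the 146 genes were called, 2 had an unadjusted p under 0.05 and were higher and 30 were lower (4.07% and 8.6% of all genes), and the median was -0.69 (0.28 without both libraries). In NaKtide against Control, PNx+NaKtide against NaKtide and the interaction no list gene was called, and the genes with an unadjusted p under 0.05 were 2 higher and 1 lower, 0 higher and 2 lower, and 3 higher and 29 lower. Of all genes, 2.04% and 1.91%, 1.5% and 2.58%, and 3.48% and 5.79% did so in the same order.

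**Figure D5:**
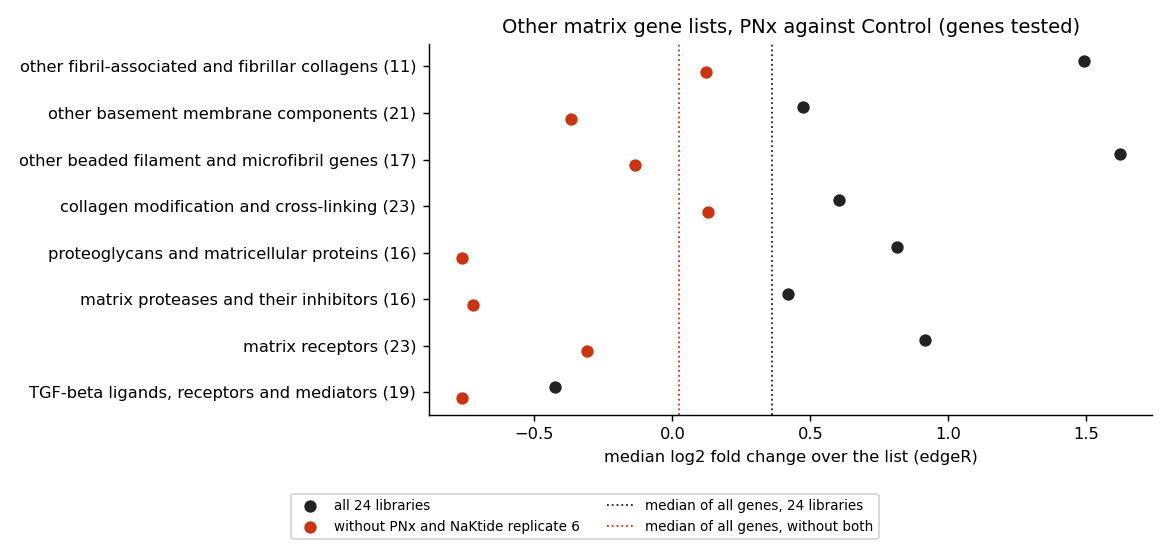
Median log2 fold change in PNx against Control over each of 8 lists of matrix genes (number of genes tested in brackets), in black from all 24 libraries and in red without PNx replicate 6 and NaKtide replicate 6, with dotted lines at the medians of all genes (0.36 and 0.02). Every list has a lower median without the pair.

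Single genes of these lists, each the highest or lowest of its list in PNx against Control, are given with and without the pair. Nid1, which encodes nidogen, a basement membrane linker, had a median of 2.24 CPM in Control and in PNx, reached 72.8 CPM in PNx replicate 6, and its log2 fold change went from 2.48 ± 1.06 to -0.14 ± 0.65 (SE) without both libraries. Timp3, an inhibitor of matrix proteases, reached 100 CPM there and went from 1.81 ± 0.75 to -0.3 ± 0.48 (SE), with an overlap of 1733 exon bases with Syn3. Tgfbr3, a co-receptor for TGF-β, went from 2.13 ± 0.76 to 0.91 ± 0.53 (SE). Other genes moved less. Crtap, which encodes a partner of the enzyme that hydroxylates collagen prolines, had 2.33 to 5.35 CPM in Control and 1.78 to 31.5 CPM in PNx, at 2.12 ± 0.59 (SE, edgeR adjusted p = 0.128) and 1.97 ± 0.59 without both libraries (edgeR adjusted p = 0.0607). Pcolce, an enhancer of procollagen cleavage, was at 17.4 to 72.1 CPM in Control and 8.08 to 32.5 CPM in PNx, at -1.44 ± 0.41 (SE, edgeR adjusted p = 0.128) and -1.69 ± 0.42 without both (edgeR adjusted p = 0.0575), and it shares 112 bases with Gm36266.

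Further genes chosen in this way were also called without the pair and not with it, in the fit where 21.8% of all genes were called. All of these genes, Crtap and Pcolce included, were picked by their fold change in the same comparison. Their calls are therefore no separate test, and the share of all genes called is no background for them. Emilin2 (2.79 ± 0.76), the integrin subunit Itgb3 (2.93 ± 0.99), Col11a1 (2.57 ± 0.86) and the thrombospondin gene Thbs1 (2.05 ± 0.81, SE) were higher. The integrin subunit Itgav (-2.17 ± 0.65), the basement membrane proteoglycan gene Agrn (-1.34 ± 0.52) and Mfap2 (-1.04 ± 0.41, SE) were lower, all with an edgeR adjusted p between 0.0575 and 0.0944. Over all 24 libraries the edgeR adjusted p of these 7 genes lay between 0.133 and 0.189. Those called higher had few counts, with 82 for Col11a1, 88 for Itgb3, 144 for Emilin2 and 261 for Thbs1 over 24 libraries. Control medians of Col11a1, Itgb3 and Emilin2 were 0.5, 0 and 0.63 CPM, below the counting limit of 0.739 to 5.91 CPM. In PNx, Col11a1 spanned 0 to 8.13 CPM, Itgb3 0 to 7.15 CPM, Emilin2 0.785 to 8.58 CPM and Thbs1 0 to 17.4 CPM. Fold changes at these levels are uncertain. Col16a1, Ecm1, Mmp11 and the receptor gene Acvrl1, the lowest of their lists, had log2 fold changes of -0.51 ± 0.48, -0.76 ± 0.49, -0.72 ± 0.37 and -1.42 ± 0.72 (SE) and were not called in either fit. Nid1 (143 bases), Thbs1 (208), Itgav (634), Mmp11 (155) and Acvrl1 (127) overlap exons of an opposite-strand gene, which makes their values uncertain. All list genes have been compared in the same libraries as the members, so the limits on strand and on the libraries that stand apart hold for them too.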

How the data were processed

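RNA from visceral adipose tissue of 24 mice was sequenced by the authors as stranded mRNA libraries with paired reads of 50 bp. By the methods of the study and the submitters' processing notes, reads were trimmed with Trimmomatic 0.38, aligned to GRCm38 with HISAT2 2.1.0 and counted per gene with GenomicAlignments, and DESeq2 1.20.0 was used. The authors deposited raw counts per gene, FPKM and a normalized signal (counts divided by 1 factor per library), which was not used. Groups and replicate numbers came from the labels. The members, gene lists and alternatives were chosen with earlier results of these data known. The p-values of the fits set a group difference against the spread between mice within groups, with information shared between genes. Those of the permutations come from shuffling libraries.

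Gene models came from GENCODE M21. Genes with more than 10 counts over 24 libraries were kept. edgeR 4.0.16 (R 4.3.3) was run with TMM scaling, robust dispersions and its quasi-likelihood F-test in a single fit with a mean for each of 4 groups, at a Benjamini-Hochberg adjusted p under 0.1, and was tested on simulated counts. CPM are TMM-scaled, and the SE is the size of the log2 fold change over the root of its F value. Alternatives were DESeq2 1.42.0, limma 3.58.1 (voom, and log2(FPKM + 0.1), a scale that understates changes of low genes), other scalings and filters, a replicate block and leaving out libraries. Single correlations and ratios were tested by permutation (scipy 1.17.1 and numpy 2.4.6). Beyond the members, the text names the highest and lowest gene of each list with a mean of at least 1 CPM, opposite-strand partners, markers and the 5 most similar genes.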

Additional observations from a re-analysis of the deposited data

Results flagged for a closer look

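In each of 40 sets of 6 libraries (10 genes in 4 groups) the highest and the lowest library were compared with the nearest other library, and a gap above Dixon's critical value for 6 samples was noted. Chance gives about 1 such set in 20 for independent sets of normally distributed values. The sets here hold CPM of genes that share their libraries, so that rate cannot test the number found. In all, 21 were found. Of these, 9 were PNx replicate 6, with levels in CPM of Col1a1 (52.8), Col1a2 (69.1), Col3a1 (153), Col4a1 (298), Col4a2 (220), Col6a1 (81.5), Col6a2 (86.8), Fn1 (34.3) and Sparc (367). A further 9 were NaKtide replicate 6, with Col1a1 (34.3), Col1a2 (28.5), Col3a1 (93.8), Col4a1 (236), Col4a2 (186), Col6a1 (81.5), Col6a2 (124), Fn1 (38.2) and Sparc (221). Tgfb1 gave none. In these sets the gap was between 0.682 and 0.959 of the range. The sums of adipocyte, fibroblast and endothelial markers were highest in the same pair of libraries, and their part in these levels was not tested. In PNx replicate 6 and NaKtide replicate 6, Gsn alone held 1149 and 720 CPM of the fibroblast sum. Egfl7 held 186 and 431 CPM of the endothelial sum.

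The remaining 3 lay in other libraries. Col4a1 stood at 42.7 CPM in Control replicate 1, and Col3a1 at 18.3 CPM and Col4a2 at 33.8 CPM in PNx+NaKtide replicate 1. These levels are below those of PNx replicate 6 and NaKtide replicate 6 for the same genes.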

How the results depend on the processing

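DESeq2 size factors, no filter on counts, the filterByExpr filter (which left 12050 genes and 9 of the members), the fit on the compared groups only and a threshold of 0.05 left the members called at 0 in every contrast they were run on, and the signs of the medians stayed. The same held in DESeq2 for 7 members, as Col4a1, Col4a2 and Sparc had no p-value there, and for all 10 with its outlier rule off, which was added after seeing the data. Scaling by DESeq2 size factors gave 8696 called genes in PNx against Control where TMM gave 20, 30.5% of all genes being called higher and 2.78% lower. Of all 10 members and 5 contrasts, 225 of the recomputed counts and medians stayed within their limits and 24 moved. The limit for a median was wide, 1.31 log2 units, the SD of the members' median level between libraries of a group. A median could thus change sign and still count as within it. That of NaKtide against Control did so with the replicate block, going from 1.03 to -0.15. Of 458 recomputed fold changes of single genes, 61 changed sign, 14 were called where none was before (12 of them with the opposite sign) and 6 had no p-value; the cause was not tested.

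With limma voom and sample weights, 7 members were called in PNx against Control, 4 in PNx+NaKtide against PNx and 3 in the interaction, and the medians of the members were -1.97, 1.18 and 1.43, and -0.31 in NaKtide against Control. In PNx against Control the log2 fold changes of opposite sign were those of Col1a1 (-1.995), Col1a2 (-0.31), Col3a1 (-2.15), Col4a1 (-2.11), Col4a2 (-2.13), Col6a1 (-1.10), Col6a2 (-1.94) and Sparc (-0.48), and Tgfb1 gained its call at -2.29. In PNx+NaKtide against PNx they were those of Col1a1 (1.10), Col3a1 (1.43), Col4a1 (1.72), Col4a2 (1.90), Col6a1 (0.66), Col6a2 (1.33), Fn1 (0.32), Sparc (0.37) and Tgfb1 (1.26).

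The replicate numbers in the labels are shared between groups, but nothing says that they mark a shared animal or day. The mean correlation between same-numbered libraries of different groups lay between -0.02 and 0.19 (lowest -0.56 for a single pair) and was over 0.1 for 2 of 6 numbers. Since not every pair was over 0.1, the numbers were not taken to pair the samples, although 11 of 24 libraries correlated best with their own number, where 4 would if the number did not matter, a hint of pairing from the data. With the number as a block, 0 members were called, the median of the members was -0.12 in PNx against Control and -0.50 in the interaction, and all genes called fell from 20 to 1. The block turned the sign of Col1a1 (-0.37), Col3a1 (-0.15), Col4a1 (-0.68), Col4a2 (-0.50) and Col6a2 (-0.088) in PNx against Control and of Col4a1 (0.42), Col4a2 (0.38) and Tgfb1 (0.14) in PNx+NaKtide against PNx. On the log2(FPKM + 0.1) scale of limma, the median in PNx against Control was -0.056, with opposite signs for Col1a1 (-0.19), Col3a1 (-0.22), Col4a1 (-0.34) and Col4a2 (-0.28), and in PNx+NaKtide against PNx for Col4a2 (0.060) and Tgfb1 (0.076).

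Without PNx replicate 6 and NaKtide replicate 6, the members called in PNx against Control were 2 and the list genes called 30 of 143 (21%) in place of 0, where 21.8% of all genes were called, a comparison of the lists that was chosen after seeing the data. The medians of the members in the 5 contrasts were -0.62, 0.11, -0.53, 0.13 and 0.58. The sign changed in PNx against Control for Col1a1 (-0.72), Col1a2 (-0.092), Col3a1 (-1.08), Col4a1 (-1.68), Col4a2 (-1.30), Col6a1 (-0.21), Col6a2 (-0.43), Fn1 (-0.0012) and Sparc (-0.53), and in PNx+NaKtide against PNx for Col3a1 (0.37), Col4a1 (1.45), Col4a2 (1.11), Fn1 (0.48) and Sparc (0.25).

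Leaving out 1 library at a time, the members called ranged from 0 to 1 in PNx against Control (1 without PNx replicate 5), where all genes called ranged from 0 to 8645, and stayed at 0 in the other contrasts. The median of the members ranged from -0.62 to 1.55 in PNx against Control, -1.84 to 0.11 in PNx+NaKtide against PNx, -0.54 to 1.27 in NaKtide against Control, -1.50 to 0.13 in PNx+NaKtide against NaKtide and -2.82 to -0.59 in the interaction of nephrectomy and NaKtide. In PNx against Control, the fold change of single genes ranged from -0.71 to 0.71 for Col1a1, -0.088 to 1.66 for Col1a2, -1.07 to 1.72 for Col3a1, -1.67 to 1.85 for Col4a1, -1.29 to 1.49 for Col4a2, -0.20 to 1.43 for Col6a1, -0.42 to 1.34 for Col6a2, 0.0017 to 1.81 for Fn1, -0.52 to 1.70 for Sparc and -1.27 to -0.54 for Tgfb1. In PNx+NaKtide against PNx it ranged from -1.63 to -0.18 for Col1a1, -2.15 to -0.40 for Col1a2, -2.72 to 0.36 for Col3a1, -2.29 to 1.44 for Col4a1, -1.79 to 1.10 for Col4a2, -2.001 to -0.39 for Col6a1, -1.89 to -0.040 for Col6a2, -1.23 to 0.48 for Fn1, -1.89 to 0.25 for Sparc and -0.27 to 0.45 for Tgfb1. Every change of sign of a collagen, Fn1 or Sparc came without PNx replicate 6, and those of Tgfb1, in the latter comparison, came without PNx replicate 4, PNx replicate 5 or PNx+NaKtide replicate 3.

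The tests and alternatives of the chain ratios were chosen after seeing the data. The log2 count ratio of Col1a1 to Col1a2 ranged from -1.38 to -0.93 when 1 library was left out. The ratios of Col3a1 to Col1a1 and Col4a1 to Col4a2, both near 0, ranged from -0.43 to 0.13 and from -0.23 to 0.11. Without PNx replicates 1, 2 and 3 the Col1a1 to Col1a2 ratio was at -0.48, Col3a1 to Col1a1 at 0.071 and Col6a1 to Col6a2 at -0.037. Depth limits all of these values, since Fn1 had 272 counts over 24 libraries and 3 libraries at 0.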
